A study of Homo sapiens with 12 samples.

Results

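The splicing factors described here are the proteins and protein families that build the spliceosome or steer it, as they were measured in L-540 cells, an established human Hodgkin lymphoma line. They were taken as all array probes whose gene symbol begins with SRSF, HNRNP, SNRP, SF3A, SF3B, PRPF or LSM. A probe was kept when at least 3 of the 12 arrays had its signal above the negative-control beads, with a detection p under 0.01. Of 118 such probes of 79 genes on the array, 88 probes of 66 genes were kept, among 11904 kept probes in all. The 13 genes with no kept probe were HNRNPCL1, HNRNPH3, HNRNPLL, LSM6, LSM11, LSM14B, PRPF6, PRPF39, PRPF40B, SF3A1, SNRPE, SRSF11 and SRSF12. Of the 88 kept probes, 72 were detected on all 12 arrays, 7 on 10 or 11, and 9 on 3 to 9. Probes annotated to pseudogenes were left out of the 88, and so was LSMEM1, whose symbol shares the letters but which is not an LSm protein.

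The cells received 10 µM perifosine, 5 µM sorafenib, both drugs at these doses (the combination), or no drug named in the labels (the control), each for 24 h, with 3 arrays per group lettered A, B and C. Perifosine, an alkyl phospholipid, keeps AKT from the membrane. Sorafenib blocks RAF kinases and several receptor tyrosine kinases. All groups are the same single cell line, and whether the letters stand for separate cultures is not stated in the labels, so p-values measure the spread between these arrays only, which may be technical. Of 6 markers of Hodgkin and Reed-Sternberg cells, TNFRSF8 (CD30), IL2RA, FSCN1 and BATF3 were detected on all 12 arrays, whereas none of the B cell markers looked for (MS4A1, CD79A, CD79B and PAX5) and none of the 4 fibroblast markers was kept. CCL17 and IL13 were not detected on any array, and 4 of 6 T and NK cell markers (CD2, CD247, NKG7, GZMB) and 2 of 4 monocyte markers (CD68, CSF1R) were kept.

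Splicing removes introns from a pre-mRNA through small nuclear ribonucleoproteins (snRNPs), each made of a small RNA, a ring of shared Sm proteins and proteins of its own. The U2 snRNP carries the SF3A and SF3B complexes, which hold the intron's branch point, and a ring of LSm proteins sits on the U6 RNA. PRPF proteins belong mostly to the tri-snRNP and to the complexes that activate the spliceosome. SR proteins (SRSF) usually promote the use of a nearby exon, and hnRNP proteins coat nascent RNA and often repress it. Many of these genes are expressed in every cell, and several hnRNP and SR genes regulate their own transcripts by splicing.

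Proximal promoters are shown for 4 members whose probes are described below. They are windows of 300 bases, from 250 before to 50 after a RefSeq transcription start (GRCh38.p14), read 5′ to 3′ along the gene's strand. Capitals mark matches, on either strand, to the core letters of 3 factors' motifs: CCGGAAG for ETS factors, GCGCATGC for NRF1 and AAGATGG for YY1. The ETS and YY1 letters can share bases, as they do once in SF3B6. SF3B6 (chr2:24076277-24076576, minus strand) and SF3B2 (chr11:66052114-66052413, plus strand) encode SF3B subunits. SNRPB (chr20:2470740-2471039, minus strand) encodes the Sm proteins B and B′, and SNRPN (chr15:24954737-24955036, plus strand) encodes their close relative SmN. Of the 4 SNRPN windows, the one shown is that with the NRF1 letters.
SF3B6: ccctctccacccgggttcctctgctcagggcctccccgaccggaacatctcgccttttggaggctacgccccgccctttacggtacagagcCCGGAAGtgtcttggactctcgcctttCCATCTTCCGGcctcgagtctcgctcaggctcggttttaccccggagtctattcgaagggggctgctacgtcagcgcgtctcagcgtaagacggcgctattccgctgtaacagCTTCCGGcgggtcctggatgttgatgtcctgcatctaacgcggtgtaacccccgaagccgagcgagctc
SF3B2: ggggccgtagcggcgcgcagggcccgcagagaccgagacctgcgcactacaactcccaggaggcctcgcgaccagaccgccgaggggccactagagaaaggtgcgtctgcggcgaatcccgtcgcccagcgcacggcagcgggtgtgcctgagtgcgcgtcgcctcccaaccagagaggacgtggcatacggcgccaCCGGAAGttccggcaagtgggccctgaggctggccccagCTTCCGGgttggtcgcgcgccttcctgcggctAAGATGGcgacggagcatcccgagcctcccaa
SNRPB: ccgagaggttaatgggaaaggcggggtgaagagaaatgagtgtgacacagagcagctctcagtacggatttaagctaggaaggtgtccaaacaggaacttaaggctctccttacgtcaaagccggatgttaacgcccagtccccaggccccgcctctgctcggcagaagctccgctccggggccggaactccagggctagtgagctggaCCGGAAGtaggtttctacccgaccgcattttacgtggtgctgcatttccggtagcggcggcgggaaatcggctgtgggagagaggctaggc
SNRPN: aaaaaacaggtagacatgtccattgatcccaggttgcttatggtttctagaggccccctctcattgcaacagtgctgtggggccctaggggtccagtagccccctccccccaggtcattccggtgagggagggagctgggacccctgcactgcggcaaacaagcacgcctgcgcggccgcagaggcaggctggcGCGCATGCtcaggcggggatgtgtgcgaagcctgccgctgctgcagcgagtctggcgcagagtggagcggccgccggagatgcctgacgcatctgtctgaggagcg

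Promoter windows were listed for 59 of the 66 member genes, 81 windows in all. The ETS letters were found in 25.9% of the member windows and in 10.3% of all 35116 windows. The NRF1 letters were found in 7.41% of member windows and 3.05% of all windows, and the YY1 letters in 8.64% and 5.84%. Shares of the other letters searched were 43.2% of member windows and 34.6% of all windows for CCAAT (NF-Y), 51.9% and 45% for GGGCGG (SP1), 11.1% and 7.26% for CACGTG (E-box), 14.8% and 7.98% for TGACGT (part of the CRE), 3.7% and 3.62% for TGATGNAA (the ATF4 composite element), and 7.41% and 11.5% for TATAAA, the core of that name. The median G+C content was 61.3% in member windows and 58.7% in all windows. A match of letters is a description of the sequence and not a site of binding.

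Intensities are given throughout as normalized log2 values, on which 1 unit is a doubling, and changes are differences of group means. Levels of different probes are not comparable with each other, since each probe has its own hybridization strength. The arrays detected 9291 to 11657 probes, and correlations between arrays of a group ran from 0.952 to 0.983. Combination array B stood apart from the rest. It had the highest median raw intensity (648.7, against 404.3 to 579.3 on the other arrays), the fewest detected probes (9291), 75 detected members (80 to 87 on the others) and the lowest array weight in limma (0.282). The main results that rest on it are also given without it.

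Relative to untreated cells, few single splicing factor probes passed the threshold of an adjusted p of 0.05. In every role most probes lay below 0 with sorafenib. The hnRNP, PRPF and SF3B probes had the lowest medians, both with sorafenib and with the combination. With perifosine alone, 21 of 29 hnRNP probes, 6 of 8 PRPF probes and 9 of 12 LSM probes also lay below 0, against 49.3% of all kept probes. On perifosine A, B and C the mean difference from the control mean was -0.34, -0.03 and -0.06 over the hnRNP probes. For the PRPF probes it was -0.33, 0.05 and -0.21, and for the LSM probes -0.03, -0.09 and -0.11. P-values came from 1 limma model over the 12 arrays, adjusted by Benjamini-Hochberg over all 11904 kept probes. With perifosine, 0 of 88 member probes passed (background 0%). With sorafenib 0 passed as well (background 0.949%). With the combination 4 passed (background 2.34%), 2 of them lower (background 0.857%) and 2 higher (background 1.49%): both HNRNPA1 probes were lower and a pair of SNRPN probes was higher. That count rested on single arrays: it was 0 without control C, 1 without control B, combination A or combination C, 2 without control A, perifosine B, perifosine C, sorafenib B or sorafenib C, 3 without combination B, 4 without perifosine A and 5 without sorafenib A. At an unadjusted p under 0.05 there were 3 members with perifosine (3.41%, background 2.47%) and 18 with sorafenib (20.5%, background 15.2%), both shares near the background. Without combination array B, 2 members passed with sorafenib, HNRNPA1 and HNRNPH2.

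The letters paired the perifosine, sorafenib and control arrays (arrays with the same letter deviated together), and with the letter as a block 6 member probes passed with sorafenib (background 3.09%). These 6 were the brighter HNRNPA1 probe, 1 HNRNPAB probe, HNRNPH2, both HNRNPM probes, all lower, and 1 SNRPN probe, which was higher. The second HNRNPM probe was detected on 0 sorafenib arrays and 1 control array, so its call compares values at or near background.

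The median change of the 88 member probes was -0.058 for perifosine, -0.205 for sorafenib and -0.247 for the combination, each against control. Below 0 lay 58 members under perifosine, 72 under sorafenib and 69 under the combination, so that 81.8% of members lay below 0 with sorafenib, against 50.1% of all kept probes. All 3 comparisons share the control arrays, and they are not independent of each other.

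**Figure D1:**
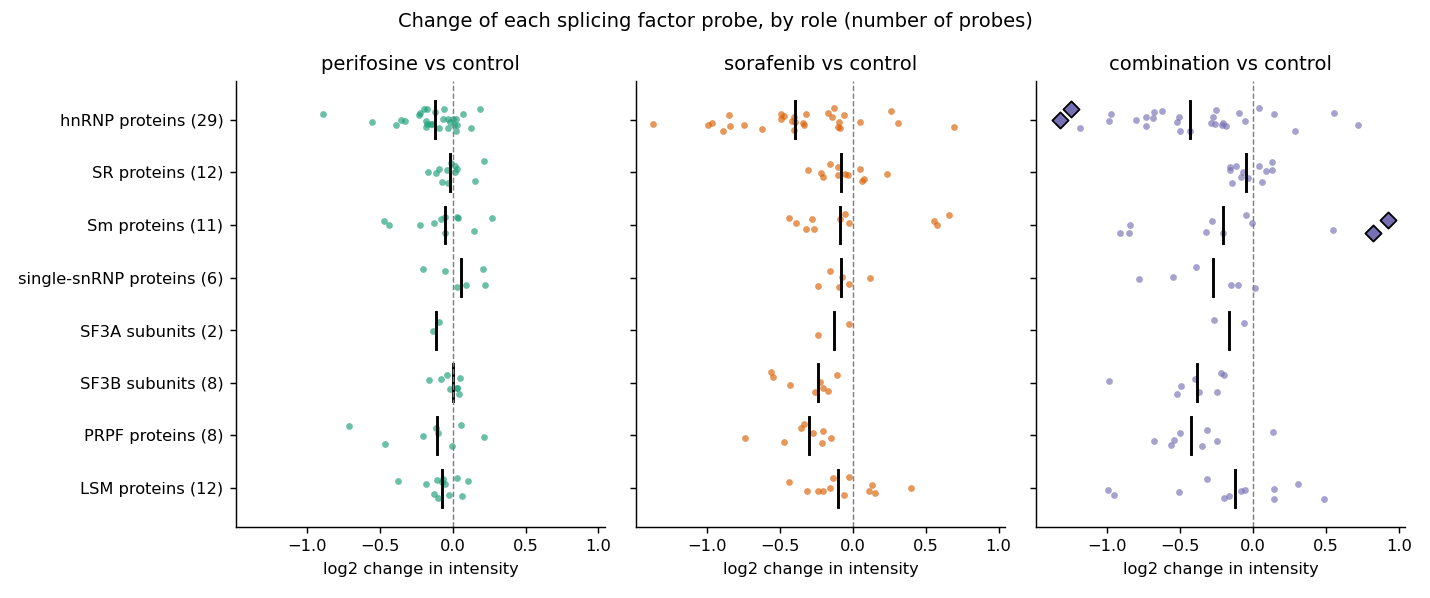
Log2 change in normalized intensity of each of the 88 splicing factor probes (points) against control, by role, for perifosine, sorafenib and the combination, with black bars at the role's median and outlined diamonds for probes with an adjusted p under 0.05. The hnRNP medians are -0.121 for perifosine, -0.398 for sorafenib and -0.434 for the combination, and the 4 diamonds are the HNRNPA1 and SNRPN probes with the combination.

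Complete separation of the groups was counted as a description of the arrays. With perifosine, 7 member probes had all 3 arrays below all 3 control arrays (7.95%, background 3.46%), and 0 had them all above (background 3.98%). With sorafenib, 17 were wholly below (19.3%, background 11.5%) and 6 wholly above (6.82%, background 11.9%). With the combination, 24 were wholly below (27.3%, background 10.4%) and 7 wholly above (7.95%, background 12.2%). Member probes of a gene share their transcript, so these counts are not counts of separate genes.

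Because sorafenib was present in 6 arrays and absent from 6, its change was also averaged over the absence and the presence of perifosine, in the same model. This contrast was added after the data had been seen. With it, 15 of 88 member probes passed (17%, background 10.8%). Of these, 10 were lower with sorafenib (11.4%, background 4.64%) and 5 were higher (5.68%, background 6.18%). The lower ones were 7 hnRNP probes, 2 SF3B probes and 1 PRPF probe, and the higher ones were 3 SNRPN probes, HNRNPDL and HNRNPA1L2. No SR, SF3A, single-snRNP or LSM probe was among them. Without combination array B 17 member probes passed, among them both LSM3 probes, 1 SNRPF probe and SNRPG, all lower. With median scaling of the arrays only 1 of the 15 calls held, that of the brighter HNRNPA1 probe. The count fell below 10 in 6 of the 12 fits that left out 1 array: it was 6 without perifosine C, 7 without perifosine B or sorafenib C, 8 without control B or control C, and 9 without sorafenib A. The corresponding average change with perifosine passed for 0 members (background 0%), with 2 members at an unadjusted p under 0.05 (2.27%, background 2.6%).

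In 6 member probes every one of the 6 arrays with sorafenib lay below every one of the 6 without it (6.82%, background 3.28%). They were both HNRNPA1 probes and 1 probe each of HNRNPAB, LSM3, SF3B6 and SNRPG. In 5 the 6 arrays with sorafenib all lay above (5.68%, background 4.29%): HNRNPA0, HNRNPA1L2, HNRNPDL and a pair of SNRPN probes. Of these 11 probes, 4 did not pass the test of the averaged change, namely LSM3 (adjusted p = 0.077), SF3B6 (adjusted p = 0.127), SNRPG (adjusted p = 0.092) and HNRNPA0 (adjusted p = 0.090), by limma. Without combination array B, LSM3 (adjusted p = 0.033) and SNRPG (adjusted p = 0.035) passed it.

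**Figure D2:**
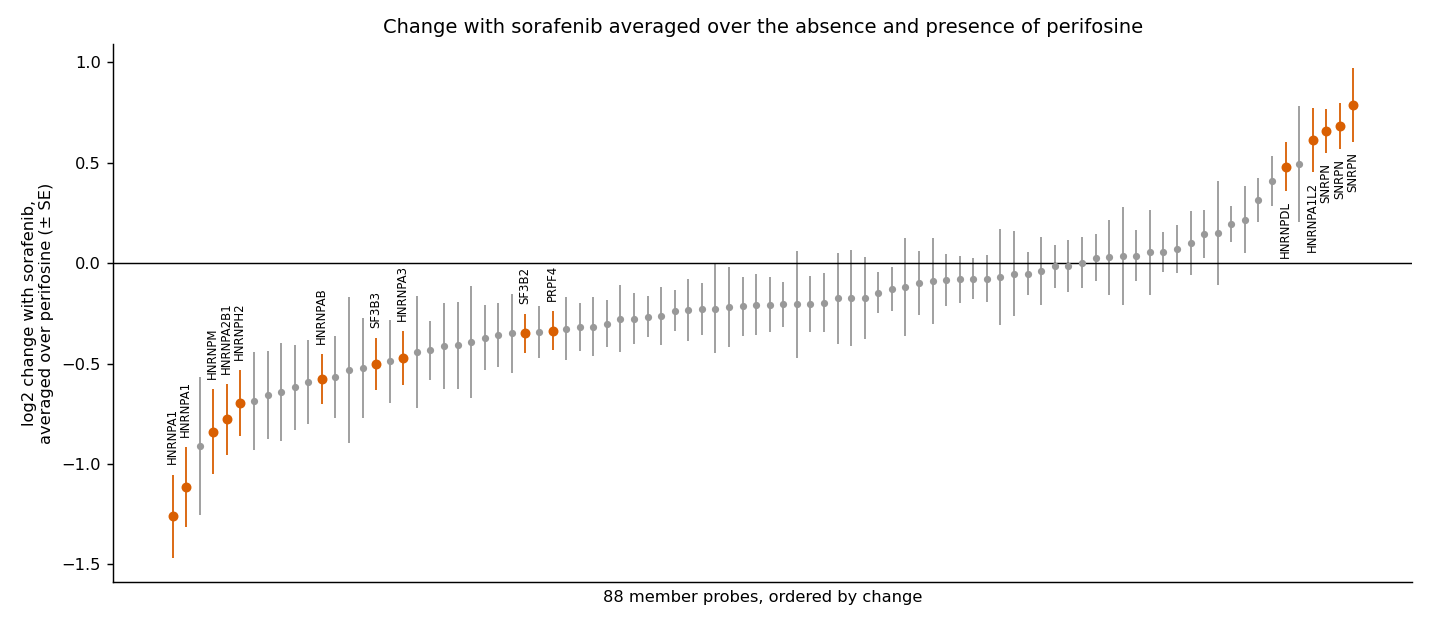
Log2 change with sorafenib, averaged over the absence and presence of perifosine, for the 88 member probes in order of the change, with the standard error of the limma fit as bars. The 15 probes with an adjusted p under 0.05 are coloured and named, from HNRNPA1 at -1.26 to the dimmest SNRPN probe at 0.79.

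HNRNPA1, an abundant RNA-binding protein that represses exons and takes part in telomere and mRNA metabolism, had the largest negative change with sorafenib among the members. Its brighter probe measured 10.62, 11.19 and 11.33 with perifosine, 9.37, 10.11 and 10.07 with sorafenib, 9.48, 10.36 and 9.86 with the combination, and 10.85, 11.32 and 11.50 in control cells (arrays A, B and C). All 6 arrays with sorafenib were below all 6 without it. The level was 2.50-fold lower with the combination than in control (log2 change -1.32 ± 0.29, SE, limma adjusted p = 0.043), and 2.59-fold lower with sorafenib alone, where the change of -1.37 ± 0.29 did not pass without the letter block (adjusted p = 0.057) and passed with it (adjusted p = 0.0093). With perifosine alone the change was -0.17 ± 0.29. The call with the combination held in 3 of 12 fits that left out 1 array, those without perifosine A, sorafenib A or combination B, with an adjusted p of up to 0.149 in the others.

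The dimmer HNRNPA1 probe had 8.58, 9.25 and 9.03 with perifosine, 7.57, 8.07 and 8.29 with sorafenib, 7.65, 7.27 and 7.82 with the combination, and 8.97, 8.30 and 9.22 in control cells. The sorafenib and combination arrays again lay below all others, although sorafenib C (8.29) and control B (8.30) nearly met. Its change was -1.25 ± 0.28 with the combination (adjusted p = 0.043) and -0.85 ± 0.28 with sorafenib (adjusted p = 0.167). This probe was detected on 11 of 12 arrays, with 1 combination array below the detection limit, and its call with the combination also held in 3 of 12 fits that left out 1 array (those without control B, perifosine A or sorafenib A). Averaged over both settings, the change with sorafenib was -1.26 ± 0.21 for the brighter probe (adjusted p = 0.0051) and -1.11 ± 0.20 for the dimmer one (adjusted p = 0.0072), and both calls held in each of 12 fits that left out 1 array. With median scaling the brighter probe's call held and the dimmer probe's did not.

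HNRNPA1 is also the member with the most gene copies. RefSeq symbols (GRCh38.p14) list 75 HNRNPA1 pseudogenes, followed by 20 for SNRPC, 20 for SNRPG and 17 for HNRNPA3. Of the 79 member genes, 40 have at least 1 annotated pseudogene and 10 have 5 or more. The probes' own sequences were not used here, so which copies a probe can bind was not tested.

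HNRNPA1L2, an intronless HNRNPA1-like gene, measured 7.83, 7.71 and 7.86 with perifosine, 8.21, 8.45 and 8.25 with sorafenib, 8.21, 8.46 and 8.32 with the combination, and 8.03, 7.79 and 7.02 in control cells. All 6 arrays with sorafenib were above all 6 without it, in the direction opposite to the HNRNPA1 probes. Its averaged change was 0.61 ± 0.16 (adjusted p = 0.033), and the call held in 3 of the 12 fits that left out 1 array. Against control it did not pass with sorafenib (0.69 ± 0.22, adjusted p = 0.165) or the combination (0.72 ± 0.22, adjusted p = 0.112). These values come from a single probe that was not detected on all 12 arrays. The gene's other probes were detected on 0 arrays.

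The kept probe of the pseudogene HNRNPA1P10 measured 8.04, 8.78 and 8.57 with perifosine, 6.91, 8.65 and 8.48 with sorafenib, 7.56, 7.02 and 8.40 with the combination, and 9.22, 8.97 and 8.65 in control cells. The combination arrays were all below the control arrays, and sorafenib B reached them. HNRNPA1P33 measured 9.22, 9.82 and 9.54 with perifosine, 9.20, 9.03 and 9.20 with sorafenib, 9.09, 8.95 and 8.75 with the combination, and 10.04, 9.39 and 9.34 in control cells. All 6 of its arrays with sorafenib lay below the others, the closest being 9.20 with sorafenib and 9.22 with perifosine. Neither passed the averaged test, with changes of -0.87 ± 0.32 (adjusted p = 0.106) for HNRNPA1P10 and -0.52 ± 0.15 (adjusted p = 0.0501) for HNRNPA1P33.

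**Figure D3:**
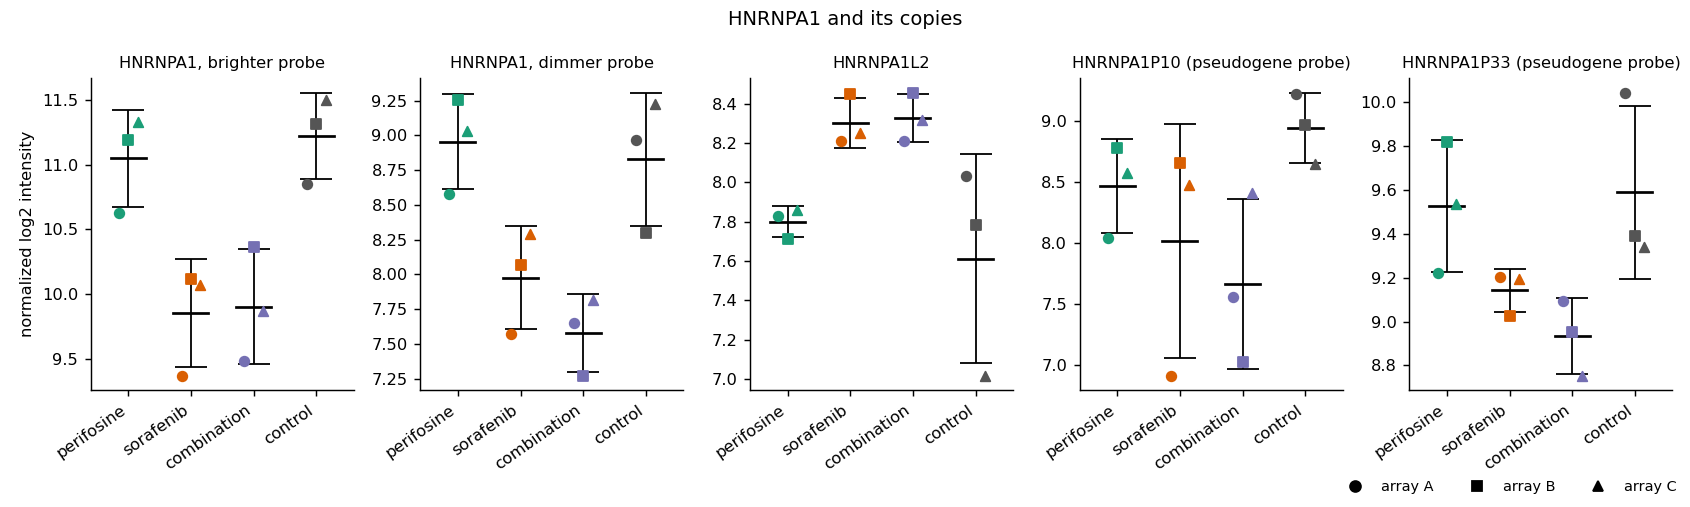
Normalized log2 intensity on each array (circle A, square B, triangle C) for 2 HNRNPA1 probes, HNRNPA1L2 and 2 pseudogene probes, with the mean and SD of 3 arrays per group; each panel has its own axis range. HNRNPA1 is lower and HNRNPA1L2 higher on the 6 arrays with sorafenib, the combination included, than on the 6 without it.

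Among the 29 hnRNP probes of 19 genes, 25 lay below 0 with sorafenib (median -0.398) and 24 with the combination (median -0.434, and -0.413 without combination array B), against 21 with perifosine (median -0.121). HNRNPA2B1, which sorts RNAs and binds primary microRNAs, had a brighter probe at 12.20, 12.41 and 12.28 with perifosine, 11.40, 12.21 and 11.58 with sorafenib, 11.13, 11.69 and 12.07 with the combination, and 12.54, 12.67 and 12.65 in control cells. Every treated array was below the lowest control array, and sorafenib B overlapped the perifosine arrays. Its averaged change with sorafenib was -0.78 ± 0.18 (1.71-fold lower, adjusted p = 0.019). The second HNRNPA2B1 probe moved by 0.10 in the same contrast, the widest disagreement (0.88) between probes of 1 member gene, and the transcripts that each probe binds were not tested.

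HNRNPM, a regulator of epithelial and mesenchymal splice forms, measured 13.23, 13.88 and 13.90 with perifosine, 12.37, 13.18 and 12.85 with sorafenib, 12.37, 13.30 and 12.85 with the combination, and 13.29, 14.02 and 13.62 in control cells on its brighter probe. In each letter the arrays with sorafenib were lower than those without it, while arrays A were low in every group. The averaged change was -0.84 ± 0.21 (1.79-fold lower, adjusted p = 0.030), a call that held in 4 of the 12 fits that left out 1 array (adjusted p up to 0.074). With sorafenib alone the change of -0.84 passed with the letter as a block (adjusted p = 0.019) and not without it (adjusted p = 0.197). The second HNRNPM probe was detected on 2 perifosine, 0 sorafenib, 0 combination and 1 control array. Its control mean also rests mostly on arrays below the detection limit, so no fold is read. With sorafenib it did not pass without the letter block (limma adjusted p = 0.357).

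HNRNPAB, which binds RNA and single-stranded DNA, measured 13.31, 13.57 and 13.45 with perifosine, 12.69, 12.82 and 12.86 with sorafenib, 12.57, 12.99 and 13.19 with the combination, and 13.26, 13.53 and 13.46 in control cells. These values are from the 1 of its 3 probes that passed the averaged test. All 6 arrays with sorafenib were lower than all others. The averaged change was -0.58 ± 0.12 (1.49-fold lower, adjusted p = 0.015). The 3 HNRNPAB probes had the same sign, between -0.58 and -0.32. The others, among them the brightest hnRNP probe (mean 15.30), did not pass.

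HNRNPH2, a binder of runs of G on the X chromosome, measured 8.20, 8.21 and 8.33 with perifosine, 7.77, 8.12 and 7.59 with sorafenib, 7.75, 8.35 and 7.36 with the combination, and 8.60, 8.84 and 8.95 in control cells. Here the perifosine arrays also lay wholly below the control arrays. The change was -0.97 ± 0.23 with sorafenib (adjusted p = 0.075), -0.97 ± 0.23 with the combination (adjusted p = 0.056) and -0.55 ± 0.23 with perifosine (unadjusted p = 0.038, limma adjusted p = 1). Without combination array B the combination's change was -1.24 and passed (adjusted p = 0.023). The averaged change was -0.70 ± 0.17 (adjusted p = 0.023), and the call held in 7 of the 12 fits that left out 1 array.

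HNRNPA3, a close relative of HNRNPA1, measured 9.76, 10.02 and 9.90 with perifosine, 9.29, 9.76 and 10.00 with sorafenib, 9.15, 9.49 and 9.20 with the combination, and 9.91, 10.00 and 10.13 in control cells. The combination arrays were below all control arrays, and the sorafenib arrays were spread into them. Its averaged change was -0.47 ± 0.13 (adjusted p = 0.044), a call that held in 2 of the 12 fits that left out 1 array. HNRNPDL, a paralog of HNRNPD that controls its own level by splicing, measured 11.53, 11.38 and 11.43 with perifosine, 11.79, 11.75 and 11.99 with sorafenib, 11.97, 12.49 and 11.97 with the combination, and 11.61, 11.74 and 11.40 in control cells. All 6 arrays with sorafenib were higher, the closest pair being sorafenib B (11.75) and control B (11.74). The averaged change was 0.48 ± 0.12 (adjusted p = 0.030) and held in 6 of the 12 such fits.

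Other hnRNP members did not pass. Both HNRNPU probes, of the chromatin- and RNA-binding scaffold protein, changed by -0.75 and -0.49 with sorafenib and by -0.62 and -0.39 in the averaged contrast. HNRNPD, HNRNPK and HNRNPUL1 had both probes below 0 in the averaged contrast. The 2 probes of HNRNPC disagreed in sign, but 1 of them was detected on 0 control arrays.

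**Figure D4:**
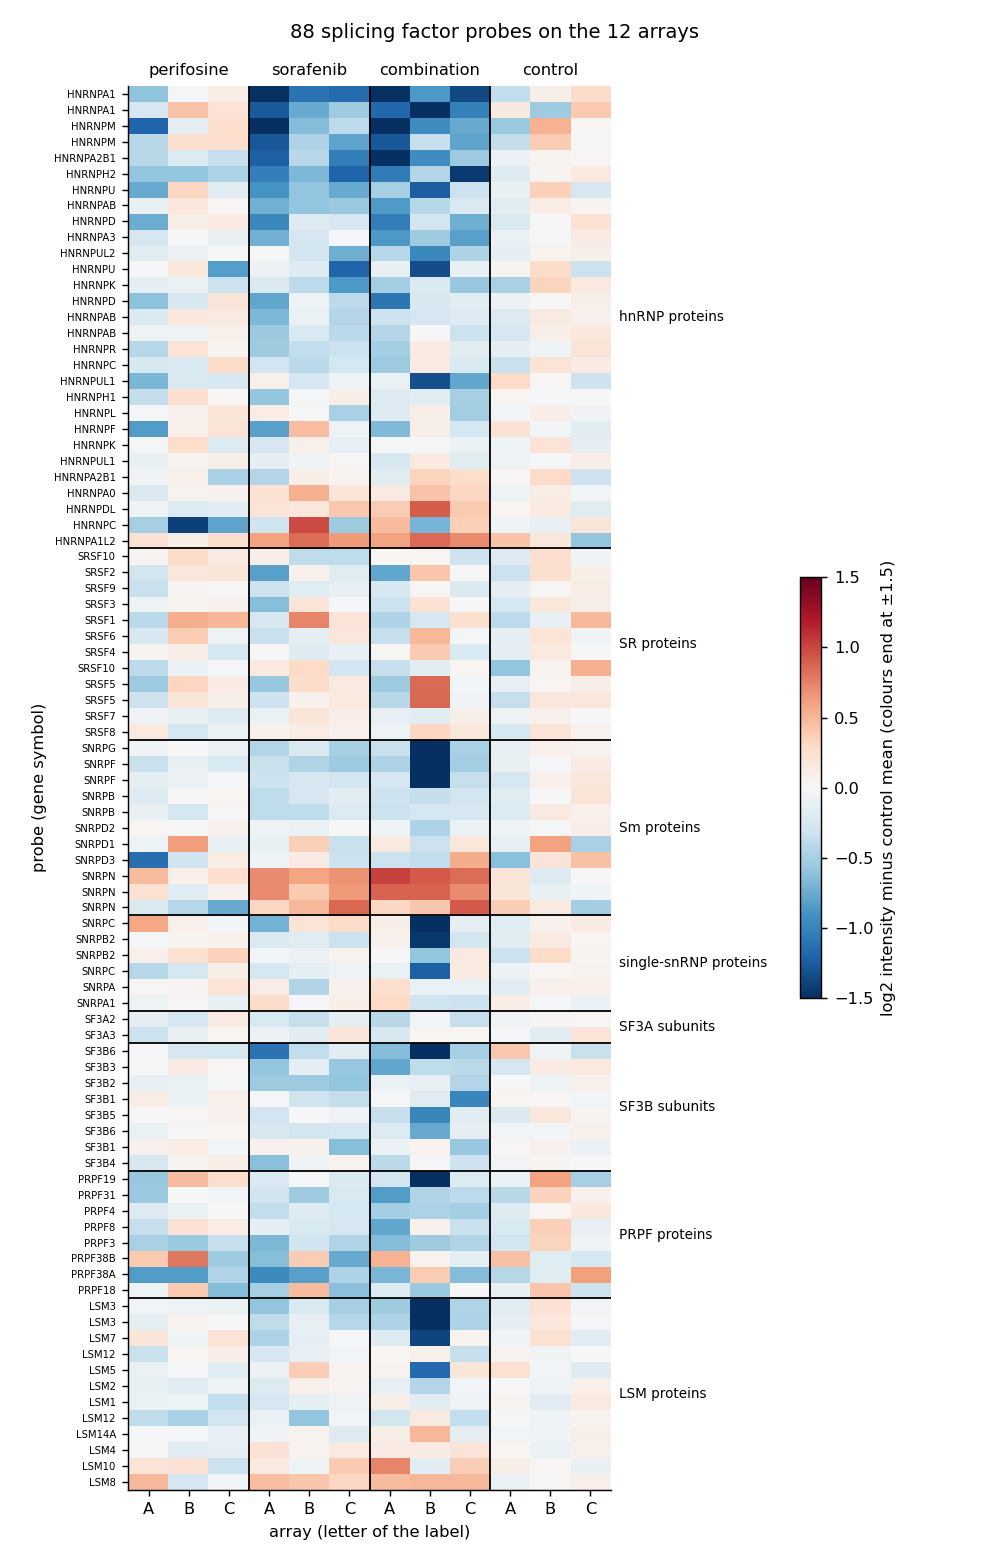
Normalized log2 intensity minus the control mean for the 88 member probes (rows, named by gene, grouped by role and ordered by the averaged sorafenib change) on the 12 arrays (columns, letters A to C in each group); red is above and blue below the control mean, with colours ending at ±1.5. The hnRNP rows are mostly blue on the 6 sorafenib-containing arrays, the SNRPN rows are red there, and combination array B alone is dark blue in SNRPF, SNRPG, SNRPC, SNRPB2, LSM3, LSM5 and LSM7.

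The 12 SR protein probes of 10 genes had a median change of -0.021 for perifosine, -0.078 for sorafenib and -0.049 for the combination, and no SR probe passed in any comparison. With the combination 7 of the 12 lay below 0, and without combination array B 11 of the 12 did (median -0.158). SRSF2, which binds purine-rich and pyrimidine-rich exon enhancers, had the lowest change with sorafenib, at -0.31 ± 0.31 (adjusted p = 0.707). It measured 13.24, 13.69 and 13.70 with perifosine, 12.70, 13.58 and 13.34 with sorafenib, 12.74, 13.94 and 13.52 with the combination, and 13.20, 13.75 and 13.60 in control cells. The groups overlapped, and in each group array A was the lowest. SRSF1, the founding SR protein, had the highest change, 0.23 ± 0.34 (adjusted p = 0.810). SRSF4, the brightest SR probe, changed by -0.10 ± 0.18 with sorafenib and 0.06 ± 0.18 with the combination.

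The Sm proteins gave 11 kept probes of 7 genes. Against control, only the 3 SNRPN probes lay above 0 with sorafenib and with the combination. Without combination array B, 6 of the 11 lay below 0 with the combination. In the averaged contrast 4 lay above 0, the SNRPN probes among them. SNRPN lies in an imprinted region and is expressed from the paternal copy, most strongly in brain. Its brightest probe measured 12.80, 12.39 and 12.63 with perifosine, 13.28, 12.96 and 13.21 with sorafenib, 13.45, 13.45 and 13.28 with the combination, and 12.75, 12.46 and 12.50 in control cells. The 6 arrays with sorafenib were all higher than the 6 without it. With the combination it rose 1.77-fold over control (log2 change 0.82 ± 0.16, adjusted p = 0.029), and with sorafenib alone the change was 0.58 ± 0.16 (adjusted p = 0.109). The call with the combination was lost without control B, control C or any 1 of the combination arrays (adjusted p up to 0.107).

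The second SNRPN probe measured 11.86, 11.46 and 11.64 with perifosine, 12.10, 11.98 and 12.06 with sorafenib, 12.41, 12.31 and 12.23 with the combination, and 11.58, 11.20 and 11.39 in control cells. Again the arrays with sorafenib were all above the rest, and the combination arrays were all above the sorafenib arrays. It rose 1.90-fold with the combination (0.93 ± 0.15, adjusted p = 0.016), a call that held in 10 of 12 fits that left out 1 array (lost without control B or control C). With sorafenib alone it changed by 0.66 ± 0.15 (adjusted p = 0.069, and 0.029 with the letter block).

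The dimmest SNRPN probe had 7.85, 7.63 and 7.30 with perifosine, 8.37, 8.55 and 8.93 with sorafenib, 8.38, 8.47 and 8.98 with the combination, and 8.43, 8.20 and 7.56 in control cells. Here control A reached the sorafenib arrays. In the averaged contrast the 3 SNRPN probes changed by 0.68 ± 0.11 (adjusted p = 0.0051), 0.66 ± 0.11 (adjusted p = 0.0052) and 0.79 ± 0.18 (adjusted p = 0.022), from the brightest to the dimmest. These calls held in 12, 12 and 10 of the 12 fits that left out 1 array, and none of the 3 held with median scaling.

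SNRPB, whose protein takes the same place in the Sm ring as SmN, did not pass in any comparison. Its brighter probe measured 14.83, 14.68 and 14.93 with perifosine, 14.56, 14.56 and 14.74 with sorafenib, 14.61, 14.68 and 14.68 with the combination, and 14.73, 15.07 and 15.02 in control cells. The combination arrays were all below the control arrays, by a small margin, and sorafenib C just overlapped control A. The log2 intensity of the brightest SNRPN probe minus that of the brighter SNRPB probe was -2.20 ± 0.15 with perifosine, -1.47 ± 0.17 with sorafenib, -1.26 ± 0.13 with the combination and -2.37 ± 0.34 in control cells (SD, n = 3 arrays). The 6 sorafenib-containing arrays, from -1.60 to -1.16, did not overlap the others, from -2.61 to -1.98. The level of this difference has no meaning of its own, because the probes differ, and only its shift between groups is read here.

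**Figure D5:**
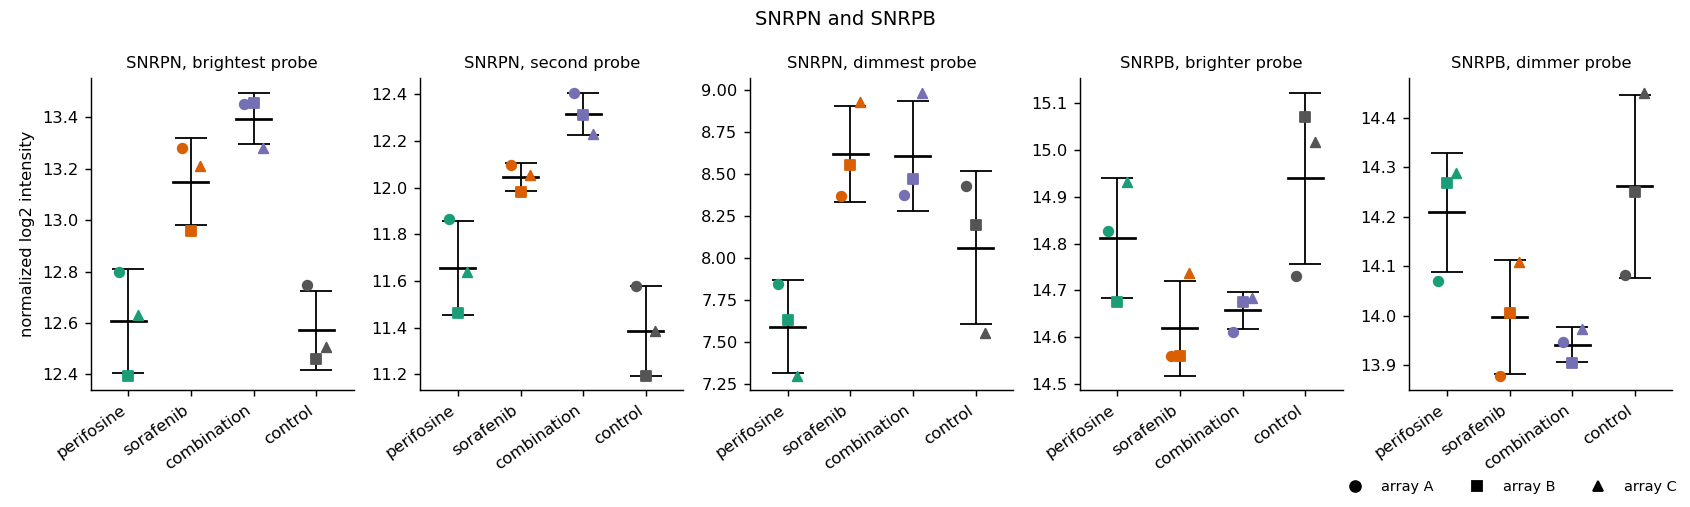
Normalized log2 intensity on each array (circle A, square B, triangle C) for the 3 SNRPN and 2 SNRPB probes, with the mean and SD of 3 arrays per group; each panel has its own axis range. The brightest SNRPN probe lies between 12.96 and 13.45 on the 6 sorafenib-containing arrays, above the 6 others, while both SNRPB probes overlap between these arrays.

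Of the other Sm proteins, SNRPD2 changed by -0.06 ± 0.14 with sorafenib and -0.21 ± 0.14 with the combination. SNRPF measured 13.87, 14.08 and 13.97 with perifosine, 13.87, 13.75 and 13.66 with sorafenib, 13.73, 12.42 and 13.69 with the combination, and 14.08, 14.18 and 14.32 in control cells, on its probe with the larger change. The low value of combination B (12.42) carried much of the change with the combination, which was -0.91 ± 0.29 over the 3 arrays and -0.48 without that array, and did not pass either way (adjusted p = 0.112 and 0.117). SNRPG measured 14.31, 14.36 and 14.27 with perifosine, 13.92, 14.14 and 13.86 with sorafenib, 14.03, 12.62 and 13.88 with the combination, and 14.24, 14.43 and 14.41 in control cells. Its 6 arrays with sorafenib were all lower, combination B far lower than the rest.

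The proteins of single snRNPs (SNRPA and SNRPC of U1, SNRPA1 and SNRPB2 of U2) gave 6 probes. Their median change was -0.084 with sorafenib and -0.272 with the combination, and 0.010 with the combination when array B was left out. SNRPC measured 9.23, 8.72 and 8.60 with perifosine, 7.94, 8.85 and 8.92 with sorafenib, 8.74, 6.34 and 8.51 with the combination, and 8.46, 8.70 and 8.77 in control cells on its dimmer probe. The value on combination B was not above the detection limit and stood far below the others. None of the 6 passed in any comparison.

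The same array stood low for several small snRNP proteins at once. On combination B the mean difference from the control mean was -0.99 over the single-snRNP probes, -0.49 over the LSM probes and -0.46 over the Sm probes. On combination A these were 0.10, 0.00 and 0.03, and on combination C they were -0.09, -0.05 and 0.11. The SR probes lay 0.25 above the control mean on combination B, -0.30 on A and -0.03 on C. The hnRNP probes did not single out array B, with -0.54, -0.33 and -0.36 on combination A, B and C. RNA quality and hybridization of this array beyond the values above were not tested.

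The SF3B complex binds the branch point region, and SF3B1 is the subunit that contacts it. All 8 SF3B probes of 6 genes were below 0 with sorafenib (median -0.242) and with the combination (median -0.383, and -0.344 without array B). With perifosine their median was 0.003. When arrays were scaled by their medians it was -0.064, with all 8 below 0, but the median of all kept probes was then -0.053. SF3B2 measured 12.31, 12.34 and 12.42 with perifosine, 11.90, 11.89 and 11.84 with sorafenib, 12.34, 12.33 and 12.00 with the combination, and 12.44, 12.36 and 12.51 in control cells. The sorafenib arrays were lower than all others, while combination A and B sat among the perifosine arrays. The change was -0.56 ± 0.14 with sorafenib (adjusted p = 0.077) and -0.22 ± 0.14 with the combination (adjusted p = 0.432).

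SF3B3 measured 11.27, 11.41 and 11.32 with perifosine, 10.70, 11.14 and 10.72 with sorafenib, 10.50, 10.90 and 10.88 with the combination, and 11.02, 11.41 and 11.43 in control cells. Its combination arrays were all below control, and sorafenib B overlapped control A. In the averaged contrast SF3B3 changed by -0.50 ± 0.13 (adjusted p = 0.031) and SF3B2 by -0.35 ± 0.10 (adjusted p = 0.042), and these calls held in 5 and 1 of the 12 fits that left out 1 array. SF3B6, which touches the branch point adenosine, had a bright probe at 13.73, 13.83 and 13.86 with perifosine, 13.59, 13.55 and 13.57 with sorafenib, 13.63, 13.07 and 13.68 with the combination, and 13.79, 13.79 and 13.91 in control cells. All 6 sorafenib-containing arrays were lower, with an averaged change of -0.30 ± 0.12 that did not pass (adjusted p = 0.127). The dimmer SF3B6 probe changed by -0.69 in the averaged contrast. With the combination it changed by -0.99, the largest change of an SF3B probe there, and it passed in neither. SF3B1, targeted by the splicing inhibitors pladienolide and spliceostatin, changed by -0.23 and -0.17 with sorafenib on its 2 probes. SF3A2 and SF3A3, the kept subunits of SF3A, changed by -0.24 ± 0.16 and -0.02 ± 0.17.

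All 8 PRPF probes were below 0 with sorafenib (median -0.303), 7 of 8 with the combination (median -0.426, and -0.531 without combination array B) and 6 with perifosine (median -0.107). PRPF4, which holds the U4 and U6 RNAs together with PRPF3, measured 11.80, 11.90 and 11.99 with perifosine, 11.63, 11.80 and 11.73 with sorafenib, 11.48, 11.52 and 11.48 with the combination, and 11.80, 12.03 and 12.15 in control cells. The combination arrays were the lowest of the 4 groups, and sorafenib B met control A at 11.80. The averaged change was -0.34 ± 0.10 (adjusted p = 0.048), and the call held in 1 of the 12 fits that left out 1 array.

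PRPF8, the core protein of the U5 snRNP, was the brightest PRPF probe and changed by -0.21 ± 0.24 with sorafenib and -0.35 ± 0.24 with the combination. PRPF31, a tri-snRNP assembly factor mutated in retinitis pigmentosa, changed by -0.35 ± 0.23 and -0.56 ± 0.23. PRPF19, a ubiquitin ligase and scaffold of the complex named after it, changed by -0.68 ± 0.39 with the combination over 3 arrays and by -0.24 without array B. PRPF38A, detected on 9 arrays, changed by -0.71 ± 0.32 with perifosine and -0.74 ± 0.32 with sorafenib. None of these PRPF changes passed.

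The 12 LSM probes of 10 genes had a median of -0.101 with sorafenib and -0.125 with the combination (-0.049 without array B). LSM3, a member of both the nuclear U6 ring and the cytoplasmic ring for mRNA decapping, measured 13.25, 13.22 and 13.19 with perifosine, 12.70, 13.06 and 12.80 with sorafenib, 12.76, 11.42 and 12.85 with the combination, and 13.12, 13.51 and 13.25 in control cells. All 6 arrays with sorafenib were below the rest, and combination B was the lowest by far. The change with the combination was -0.95 ± 0.31 (adjusted p = 0.126) and -0.49 without array B (adjusted p = 0.154). LSM8, the subunit particular to the nuclear ring, had the highest change with sorafenib, 0.40 ± 0.18 (adjusted p = 0.321). LSM2, the brightest LSM probe, changed by -0.03 ± 0.15.

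The remaining comparisons asked whether the drugs differ from each other and from their combination. Between the combination and perifosine alone, 2 member probes passed (background 1.47%): the dimmer HNRNPA1 probe, at -1.38 ± 0.28, and the brightest SNRPN probe, at 0.79 ± 0.16, and leaving out 1 array kept these calls in 4 and 3 of 12 fits. Between sorafenib and perifosine 0 passed (background 0.722%). There were 16 at an unadjusted p under 0.05 (18.2%, background 15%), and 3 passed with the letter as a block (3.41%, background 2.87%), both shares near the background. These 3 were the brighter probes of HNRNPA1 and HNRNPM and 1 HNRNPAB probe, all lower with sorafenib. Between the combination and sorafenib alone 0 passed (background 0%), with 2 at an unadjusted p under 0.05 (2.27%, near the background of 2.09%), HNRNPUL1 and SF3B2. The interaction, which is the combination's change minus the sum of the changes with each drug, passed for 0 members (background 0%), with 2 at an unadjusted p under 0.05 (background 1.89%), PRPF38A and SF3B2. These 2 are 2.27% of the members, near that background. For SF3B2 the interaction was 0.43 ± 0.19, which did not pass.

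A total of 20 member genes had more than 1 kept probe, so the signs of probes of the same gene could be compared. Their probes had the same sign in 12 genes with perifosine, in 18 with sorafenib, in 18 with the combination and in 17 in the averaged contrast. With sorafenib 81.8% of all member probes lay below 0, so a shared sign is frequent there between probes of different genes as well. The exceptions in the averaged contrast were HNRNPA2B1, HNRNPC and SRSF10. The median difference between the highest and the lowest probe of a gene was 0.155 with sorafenib.

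Other genes of the pathway were read from lists outside the rule, in the averaged contrast at an adjusted p under 0.05. For that contrast 4.64% of all kept probes were lower and 6.18% were higher. Of 28 probes (22 of 29 listed genes) for other U1, U2, U4/U6, U5 and minor snRNP genes, 3 were lower and 0 higher: SNRNP25 (-0.72 ± 0.19) and both probes of SNRNP70 (-0.50 ± 0.14 and -0.46 ± 0.13), the U1 protein that binds the RNA's first stem loop. Their median change with sorafenib was -0.191, and 24 of the 28 were below 0. Of 36 probes (32 of 39 genes) for PRPF19-related complex and step factors 4 were lower and 0 higher (EIF4A3, IK, SRRT and WBP11), with a median of -0.051 with sorafenib. EIF4A3, the helicase at the core of the exon junction complex, changed by -0.39 ± 0.10.

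Of 60 probes (39 of 44 genes) for other splicing regulators, 4 were lower (background 4.64%) and 2 higher (background 6.18%). SON, a nuclear speckle protein needed for weak splice sites, was lower on 2 probes (-0.70 ± 0.20 and -0.85 ± 0.20), KHSRP and RBM39 on 1 each (-0.64 ± 0.18 and -0.51 ± 0.13), and PTBP3 and RBM25 were higher on 1 probe each (0.43 ± 0.12 and 0.67 ± 0.19). Among 26 probes (20 of 23 genes) for snRNP assembly 1 was lower (background 4.64%). This was GEMIN6, a component of the SMN complex that loads the Sm ring, at -0.81 ± 0.17. It also passed with the combination against control (-1.16, limma adjusted p = 0.034). None of 11 probes (9 of 11 genes) for SR protein kinases and phosphatases passed in that contrast.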

How the data were processed

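Total RNA of L-540 cells was hybridized as biotin-labelled cRNA to Illumina BeadChips, 3 arrays in each of 4 groups. Per the file headers, the deposited table gives each probe's bead intensity on every array, on a linear scale and neither background-subtracted nor scaled as far as its values show, and a detection p-value. The submitters' processing notes name BeadStudio. A second deposited table holds the authors' normalized intensity values, which served as an alternative; no method for it is given in the sources used here.

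The neqc function (limma 3.58.1, R 4.3.3) corrected background, with control moments taken from detection p-values and an offset of 16, then quantile-normalized to log2. The detection filter (p under 0.01 for 3 or more of 12 arrays) kept 11904 of 48803 probes. Probe symbols came from the platform annotation, and the members' symbols were current in RefSeq. One linear model with a mean per group was fitted to the 12 arrays (lmFit, eBayes), with 7 contrasts, two-sided p-values and Benjamini-Hochberg adjustment over all kept probes. Errors given as SE are the moderated ones. Where a probe was detected on no array of a group, no fold is read for that group. The procedure was tested on simulated data.

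Letters shared by the groups were checked for pairing in the residuals. Arrays of the same letter correlated by 0.32, 0.30 and 0.26 (A, B, C) between perifosine and control, 0.25, 0.33 and 0.20 between sorafenib and control, and 0.37, 0.29 and 0.22 between perifosine and sorafenib, all above the limit of 0.1. The combination arrays met the limit only in part. Combination A correlated by 0.22 with perifosine, 0.29 with sorafenib and 0.26 with control. For combination B these were -0.16, -0.13 and -0.18, and for combination C 0.06, 0.15 and -0.13. The pairing comes from these data and the labels' letters.

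The members, roles and pathway lists were chosen with earlier results of these data known. The genes named are up to 12 called probes per comparison, the HNRNPA1 probes, and per role the brightest probe, the extremes with sorafenib and the largest changes with the combination. Probes named for the averaged contrast, for complete separation, or among the pseudogenes and pathway lists were named after their values were seen. Alternatives were other scalings, filters, a letter block, array weights, 1 probe per gene and leaving out each array.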

Additional observations from a re-analysis of the deposited data

How the results depend on the processing

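With perifosine against control, the combination against sorafenib and the interaction, the count of member probes past the threshold was 0 under every alternative run. With sorafenib against control, where the count was 0, it was 6 with the authors' normalized table, 6 without background correction, 4 with probes detected on all 12 arrays, 6 with the letter as a replicate block, 10 with that block and without the combination arrays, 4 with array weights, 1 with 1 probe per gene, and 0 to 2 when 1 array was left out. With the combination against control (4) it was 0 with median scaling, 10 with the authors' table, 10 without background correction, 0 without a filter on dim probes, 7 with probes detected on all arrays, 11 with the replicate block (whose letters pair the combination arrays only in part) and 0 to 5 with 1 array left out. With the combination against perifosine (2) these counts were 0, 5, 5, 0, 4, 6 and 0 to 2 in the same order, with 5 under array weights and 1 with 1 probe per gene. With sorafenib against perifosine (0) it was 4 with the authors' table, 4 without background correction, 1 with probes detected on all arrays, 3 with the replicate block, 4 with the block and without the combination arrays, and 3 with array weights. The averaged contrast (15) gave 1 with median scaling, 25 with the authors' table, 24 without background correction, 4 without a filter, 12 with 1 probe per gene, 22 with array weights, 19 with the replicate block and 6 to 17 with 1 array left out. The averaged contrast and the block without the combination arrays were added after the data had been seen. Under median scaling the signs of 87 of 88 members were kept with sorafenib, 81 with the combination and 73 with perifosine, and under the authors' table all 88 in each. The median change of members was -0.234 to -0.150 with sorafenib and -0.357 to -0.157 with the combination over the alternatives, and with perifosine it was -0.126 with median scaling and ran from -0.120 to 0.013 with 1 array left out, positive only without perifosine A. The cause of these differences was not tested. The slide as a block was not run, since the files used here name no slides. The number of arrays, 3 per group, and probes near the detection limit (16 of 88 not detected on all arrays) limit the precision.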
